A study of Saccharomyces cerevisiae with 12 samples.

Results

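NCA3, SIM1, SUN4 and UTH1 make up the SUN family of Saccharomyces cerevisiae, and each of them was measured by 1 probe set on all 12 arrays. The members were taken by their annotation, 4 of the 5449 genes covered by the arrays. NCA3 was selected on its measured signal, which had risen in several strains of these same data, so its values are a description and no test is given for it. SIM1, SUN4 and UTH1 entered by annotation alone. All of the values below are log2 RMA signal unless a linear signal is named, and levels are compared between arrays for a gene, never between genes, since probe sets differ in brightness.

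The proteins of the family share a conserved C-terminal domain and are found mainly in or secreted through the cell wall. They fall into closely related pairs, NCA3 with UTH1 and SIM1 with SUN4, each left by the ancient duplication of the yeast genome. SUN4 takes part in the separation of daughter from mother cells, and UTH1 encodes a protein assigned to the wall and to the mitochondrial outer membrane that has been linked to stress resistance, ageing and mitophagy. NCA3 acts with NCA2 on the expression of the mitochondrially encoded ATP synthase subunits Atp6 and Atp8, and SIM1 was isolated through the control of DNA replication.

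Transcripts were measured in cultures of 2 laboratory strains, Σ1278b, which invades agar and forms filaments, and S288c (BY4742), in which FLO8 carries a nonsense mutation. The labels give Σ1278b as MATα with ura3-52, trp1Δ::hisG, leu2Δ::hisG and his3Δ::hisG, although a strain list of the study, read from a page image, has MATa for that genotype, and the same list gives BY4742 as MATα his3Δ1 leu2Δ0 lys2Δ0 ura3Δ0. Cultures were grown at 30 °C in 5 ml of synthetic medium with 2% glucose, and the labels give early stationary phase at harvest where the methods give mid-exponential phase. The question asked was which genes respond to the transcription factors Mss11 and Flo8 and which to the adhesin Flo11, the surface protein whose gene both factors activate.

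The arrays fell into 8 groups, and every strain carried a multicopy plasmid. The first wild type was Σ1278b with an empty vector (3 arrays), and it was the control for Σ1278b overexpressing FLO11 from the constitutive PGK1 promoter on such a vector (3 arrays). Each of the other 6 groups was analysed here as 1 array and so has no replicate. They were the second Σ1278b wild type with an empty vector, Σ1278b with FLO8 on the vector, Σ1278b with MSS11 on the vector, Σ1278b carrying mss11Δ::LEU2 with an empty vector, the S288c wild type with an empty vector and S288c with MSS11 on the vector. The second Σ1278b wild type was the control of the FLO8, MSS11 and mss11 deletion arrays and was also set against the S288c wild type, so those comparisons share 1 control array.

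The manipulated genes followed the labels. FLO11 signal lay between 11.95 and 12.27 in the first wild type and between 14.81 and 14.88 in the FLO11 strain, and MSS11 was 8.22 in the second wild type, 12.29 with its plasmid and 6.87 in the deletion strain. Between replicates 0 to 7 of 5498 probe sets differed at least 2-fold (6 pairs), whereas 78 to 94 did between the wild types of both sets (3 pairs), which also differed in URA3 (8.57 to 8.71 against 14.73). LEU2 signal stood at 13.04 in the second wild type although the strain is labelled leu2Δ. In both S288c arrays all 6 a-specific genes were above background with a summed linear signal of 3298 to 8749, against 684 to 1074 in the 10 Σ1278b arrays, while the 4 α-specific genes summed to 51299 to 54911 there and to 36131 to 49823 in Σ1278b. STE2, the α-factor receptor gene that defines a cells, was at 12.14 and 10.71 in S288c and between 7.40 and 8.55 in Σ1278b. The a-cell signal in S288c goes against MATα as the mating type of BY4742, so each S288c result below stands beside that fact, and its part in them was not tested. In bulk RNA, fewer cells of a kind and less RNA per cell cannot be told apart.

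NCA3 varied far more over the arrays than its relatives did. Its signal spanned 8.02 to 12.31 over the 12 arrays, a range of 4.29 or 19.6-fold, and 0.855% of probe sets had a wider range. NCA3 was selected for such rises, so this rank follows in part from the selection. SUN4 spanned 10.97 to 12.96, a range of 1.99 or 3.96-fold, wider than most genes. UTH1 moved between 14.29 and 14.66 and SIM1 between 12.74 and 12.97. These ranges of 0.37 and 0.23 were narrower than the median range of all probe sets, 0.58, and 93.5% of probe sets had a wider range than SIM1. All 4 genes were above background on all 12 arrays, the closest being NCA3 in the S288c wild type at 3.26 above it, and none of the 4 probe sets carried the suffix that marks probes shared with other genes.

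**Figure D1:**
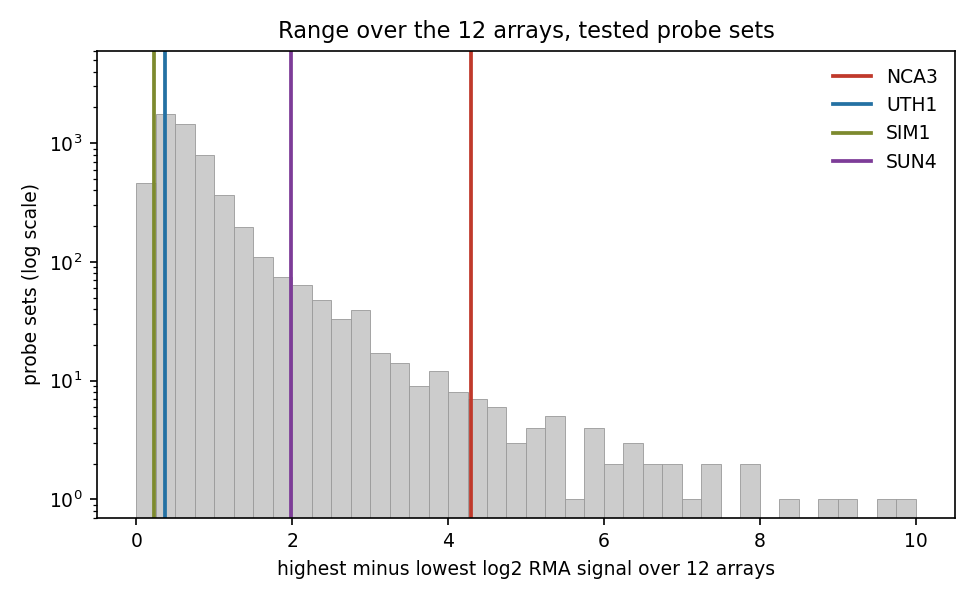
Number of probe sets (log axis) by the range of their log2 RMA signal over the 12 arrays, in bins of 0.25, with vertical lines at the 4 SUN family genes. SIM1 (0.23) and UTH1 (0.37) fall left of the median of 0.58, SUN4 (1.99) to its right and NCA3 (4.29) in the far tail.

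In the first wild type NCA3 was at 9.76, 10.06 and 10.08, and in the strain overexpressing FLO11 at 11.81, 11.64 and 11.50. All 3 FLO11 arrays lay above all 3 wild-type arrays. In the second set NCA3 was at 9.10 in the Σ1278b wild type, 10.61 with extra FLO8, 12.31 with extra MSS11 and 9.78 in the mss11 deletion strain. The S288c wild type had 8.02 and S288c with the MSS11 plasmid 11.32. The S288c wild type thus had the lowest NCA3 signal and Σ1278b with extra MSS11 the highest. Of the neighbours in this order, only the mss11 deletion strain and the first wild type (a gap of 0.19) lay within the widest range of replicates, 0.33, although the gap of 0.33 between S288c with MSS11 and the FLO11 strain barely exceeded it.

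UTH1, the closest relative of NCA3, was nearly level. Its 3 wild-type values were 14.37, 14.46 and 14.41, and those with FLO11 overexpressed were 14.48, 14.50 and 14.44, so the groups overlapped. The single Σ1278b arrays gave 14.46 in the wild type, 14.51 with FLO8, 14.66 with MSS11 and 14.29 without MSS11, and S288c gave 14.31 and 14.36 with MSS11. In the order of the 8 groups only the step from FLO8 to MSS11 overexpression, 0.15, was larger than the widest range of UTH1 replicates, 0.09. Steps between neighbours in a sorted order are small by construction, and the whole span over the 12 arrays was 0.37.

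SIM1 stood at 12.95, 12.95 and 12.97 in the first wild type and at 12.88, 12.86 and 12.79 with FLO11 overexpressed. It was at 12.74 in the second Σ1278b wild type, 12.76 with FLO8, 12.88 with MSS11, 12.75 without MSS11, 12.92 in the S288c wild type and 12.84 in S288c with MSS11. Every neighbouring step in the order of its 8 group means was within 0.09, the widest range of its replicates, but the whole span over the 12 arrays was 0.23.

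SUN4, the closest relative of SIM1, was higher in both S288c arrays than in any Σ1278b array. Its values were 11.74, 11.82 and 11.73 in the first wild type, 11.48, 11.37 and 11.43 with FLO11 overexpressed, and 11.17, 11.18, 10.97 and 11.41 in the second Σ1278b wild type, the FLO8, the MSS11 and the mss11 deletion array. In S288c it was at 12.96 in the wild type and 12.80 with MSS11. The gap between the lower S288c array and the highest of the 10 Σ1278b arrays was 0.98. The second wild type and FLO8, and the mss11 deletion and FLO11 strain, differed by 0.01 and 0.02, less than the 0.11 range of replicates.

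**Figure D2:**
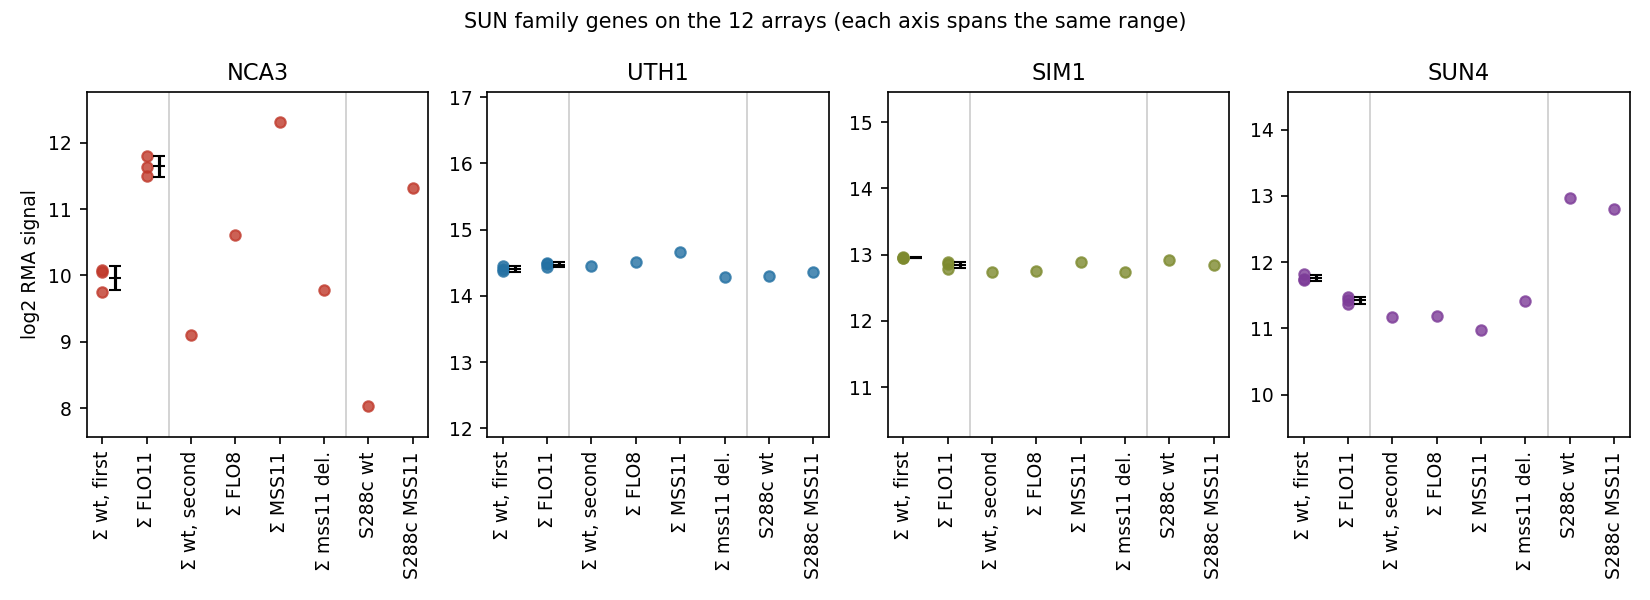
Log2 RMA signal (y axes, each spanning the same range) of the 4 SUN family genes on each array (points), by group (x axes), with mean and SD beside the 2 groups of 3 arrays. NCA3 runs from 8.02 to 12.31, SUN4 is raised in both S288c arrays (12.96 and 12.80), and UTH1 and SIM1 stay within 0.37 and 0.23.

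The first comparison asked what high levels of FLO11 alone do in Σ1278b. NCA3 went from 9.97 ± 0.18 to 11.65 ± 0.16 (SD, n = 3 each), a difference of 1.68 (SE 0.11) or 3.21-fold, and its mean linear signal from 1005 to 3224. In size 0.164% of probe sets differed by more, a rank that the selection of NCA3 on these data favours. UTH1 did not follow it, since UTH1 was at 14.41 ± 0.04 and 14.47 ± 0.03 and its difference of 0.06 (SE 0.05, 95% confidence interval −0.04 to 0.17) did not pass the limma test (adjusted p = 0.454). The interval allows UTH1 a rise of at most 0.17, far below that of NCA3.

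SUN4 fell with extra FLO11, from 11.76 ± 0.05 to 11.42 ± 0.06, with no overlap of the groups. The decrease was 1.27-fold (difference −0.34, SE 0.05, limma adjusted p = 0.0111). Across the array 2.55% of probe sets fell and 3.80% rose past the same threshold, 6.35% in all. The call of SUN4 was lost without wild-type replicate 2 (−0.31, limma adjusted p = 0.0584), when probe sets of every kind were tested (adjusted p = 0.0577) and against the joined wild types (−0.19, adjusted p = 0.596). SIM1 differed by −0.11 (SE 0.04, 95% confidence interval −0.22 to −0.01) from 12.96 ± 0.01 to 12.84 ± 0.05, and it did not pass after adjustment over all probe sets (limma adjusted p = 0.187).

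Extra FLO8 and extra MSS11 were accompanied by the same split between NCA3 and its relatives. NCA3 was 2.86-fold above the second wild type with FLO8 (difference 1.51) and 9.29-fold above it with MSS11 (3.22). With MSS11 0.0728% of probe sets differed by more. NCA3 was selected for such rises, so neither this rank nor the split is independent of that choice. In those comparisons 0.818% and 1.22% of probe sets were called, which for single arrays means a difference of at least 2-fold with the brighter array above background. UTH1 differed by 0.06 with FLO8 and 0.21 with MSS11, SIM1 by 0.01 and 0.14, and SUN4 by 0.01 and −0.20. No replicate stood behind these arrays.

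Set against the first wild type instead, the size of the NCA3 difference depended on the control. It was 0.65 with FLO8, under 2-fold, and 2.35 with MSS11. NCA3 itself was 1.82-fold lower in the second than in the first wild type (−0.87, or −0.97 to −0.81 with a first wild-type array left out), and the pair of wild types differ in their plasmids and markers as well. Of all probe sets, 1.55% were called between the wild types. SUN4 was lower there too, by 0.59 or 1.51-fold, and in a limma fit over all 12 arrays, which lends a single array the spread of the replicated groups, it passed the threshold (adjusted p = 0.00238) as did 18.0% of probe sets.

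Without MSS11, NCA3 did not fall below its control. The deletion strain had 9.78 against 9.10 in the second wild type, a difference of 0.68 or 1.60-fold, and 0.637% of probe sets were called in that comparison. Against the mean of the first wild type the sign turned, to −0.19. FLO11 signal in the same deletion array was 8.73 against 11.64, a difference of −2.90, and it was also below all 3 arrays of the first wild type. UTH1 differed by −0.16, SIM1 by 0.00 and SUN4 by 0.24.

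In S288c, extra MSS11 was accompanied by a 9.82-fold higher NCA3 signal (8.02 against 11.32, difference 3.30), and 1.67% of probe sets were called. This was 0.08 more than the MSS11 difference in Σ1278b against the second wild type, which was 2.35 against the first. From replicated cultures the study lists a larger log2 rise of NCA3 with MSS11 in S288c than in Σ1278b. UTH1, SIM1 and SUN4 differed by 0.06, −0.08 and −0.16 in S288c. Their MSS11 differences in S288c minus those in Σ1278b were −0.15 for UTH1 (95% confidence interval −0.41 to 0.11), −0.22 for SIM1 (−0.47 to 0.03) and 0.03 for SUN4 (−0.25 to 0.32), and none passed (limma adjusted p = 0.466, 0.277 and 0.910), whereas 4.77% of probe sets did. The summed signal of the a-specific genes also fell from 8749 to 3298 between these arrays, and 5 of those 6 genes were at least 2-fold lower with MSS11, as were 0.437% of probe sets.

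Over the FLO8, MSS11, mss11 deletion and S288c MSS11 comparisons, 0 of the 12 differences of SIM1, SUN4 and UTH1 reached 2-fold. By the 2-fold rule 0.818%, 1.22%, 0.637% and 1.67% of all probe sets were called there, so a count of 0 is near those shares. The 12 differences of the relatives ran from −0.20 to 0.24. In the 12-array limma fit their adjusted p values were 0.261 to 0.998, and 2 of the 12 had an unadjusted p under 0.05. That fit called 1.07% of probe sets with FLO8, 1.86% with MSS11, 0.728% without MSS11 and 12.4% with MSS11 in S288c. The difference of NCA3 minus that of UTH1 was 1.62 with FLO11, 1.46 with FLO8, 3.01 with MSS11, 0.84 without MSS11 and 3.24 with MSS11 in S288c, each against its own control. Against the first wild type it was 0.55 with FLO8, 2.10 with MSS11 and −0.068 without MSS11, so the gap in the deletion strain rested on the choice of control. Each against its own control, the same value for SUN4 minus SIM1 stayed between −0.34 and 0.23. Against the first wild type SUN4 was −0.58 with FLO8, −0.79 with MSS11 and −0.36 without MSS11. SIM1 was −0.20, −0.072 and −0.21 there, so the gap of this pair depended on the control too.

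**Figure D3:**
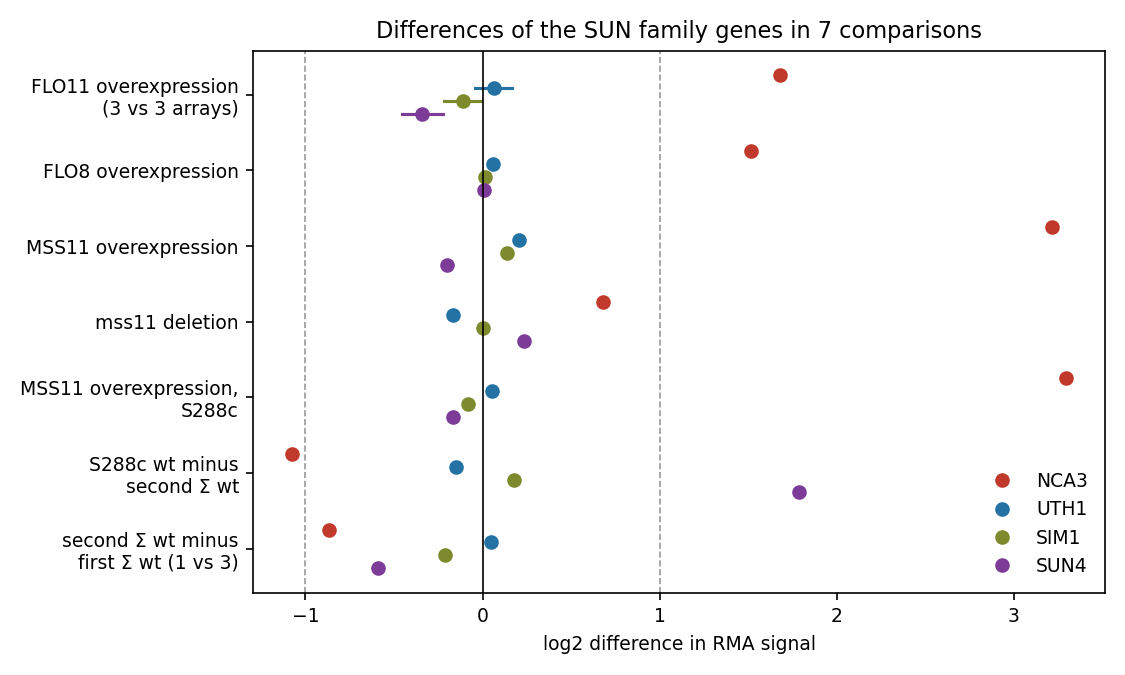
Log2 difference in RMA signal (x axis) of each SUN family gene in the 7 comparisons (y axis), with 95% confidence intervals from limma for SIM1, SUN4 and UTH1 in the comparison of 3 against 3 arrays and no error elsewhere. Dashed lines mark 2-fold. NCA3 lies at 1.51 to 3.30 in the 4 overexpression comparisons, and the other genes stay inside 2-fold except SUN4 between strains (1.79). SUN4 also lies at −0.34 with FLO11 and −0.59 between the Σ1278b wild types.

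NCA3 and FLO11 signal were both higher in the overexpression strains, in unequal proportion. FLO11 was 2.72 higher with its own plasmid, 2.56 with FLO8 and 2.64 with MSS11, while the NCA3 differences were 1.68, 1.51 and 3.22. With the first wild type as control FLO11 was 2.06 and 2.13 higher with FLO8 and MSS11, and NCA3 0.65 and 2.35. In the strain lacking MSS11 the FLO11 difference was −2.90 and that of NCA3 0.68, which was under 2-fold, and against the first wild type they were −3.40 and −0.19, so the sign of NCA3 depended on the control. In S288c with MSS11 they were 5.06 and 3.30, and between the wild types of S288c and Σ1278b −3.60 and −1.07.

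**Figure D4:**
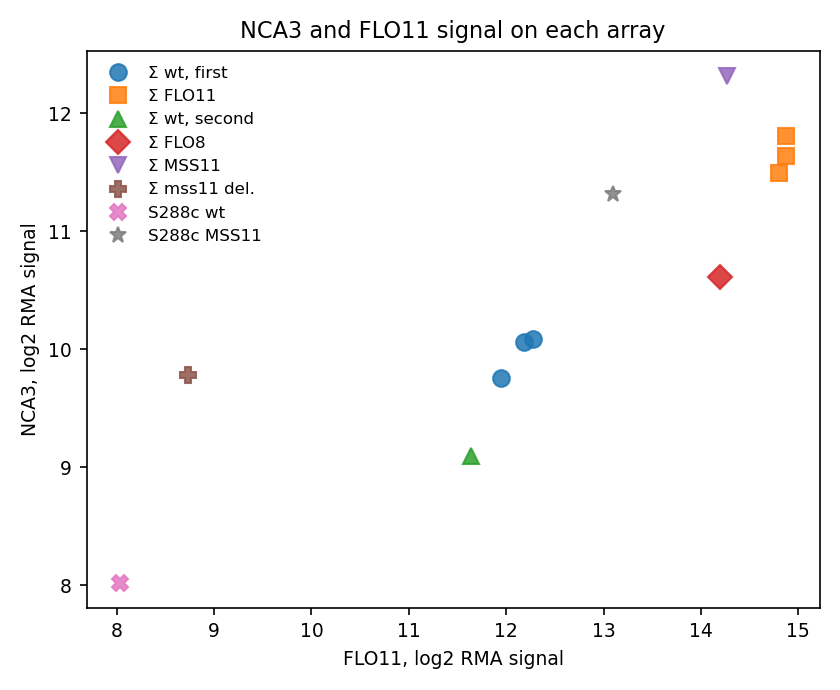
NCA3 against FLO11, both as log2 RMA signal, with 1 point per array and a symbol for each group. The mss11 deletion array (FLO11 8.73, NCA3 9.78) lies well above the S288c wild type (8.03, 8.02), and the MSS11 array (14.27, 12.31) lies above the 3 FLO11 arrays although its FLO11 signal is lower.

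Between the wild types of both strains SUN4 and NCA3 differed in opposite directions. SUN4 was 3.46-fold higher in the S288c array than in the second Σ1278b wild type (12.96 against 11.17, difference 1.79, with no replicate on either side). By the 2-fold rule 8.60% of probe sets were called. NCA3 was 2.11-fold lower (−1.07), in a direction in which 3.27% of probe sets were called, SIM1 differed by 0.18 and UTH1 by −0.15. Against the first wild type the SUN4 difference was 1.20 and that of NCA3 −1.94, so which of them differed more turned with the control. Both S288c arrays lay above all 10 Σ1278b arrays for SUN4 and for 15.4% of probe sets. The array was designed on S288c, so a difference in transcript level and a difference in match to the probes cannot be told apart between strains, and strain is also joined to the a-cell signal described above.

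Genes of cell separation, the process in which SUN4 acts, showed the same strain difference. Of the 12 listed genes 11 were measured, and 9 of them were at least 2-fold higher in the S288c wild type (5.33% of all probe sets were), with a list median of 1.89 beside −0.04 for all probe sets. DSE1, a daughter-cell gene, differed by 3.79, DSE2, which encodes a daughter-specific secreted protein with similarity to glucanases, by 3.33, and SCW11, a wall glucanase gene, by 2.98. Both S288c arrays lay above all Σ1278b arrays for 10 of the 11 genes. With FLO11 overexpressed, 3 of the 11 fell past the threshold and 0 rose, namely DSE2 (−0.55), PRY3 (−0.36) and DSE1 (−0.35), where 2.55% of all probe sets fell, and the list median was −0.15 beside −0.01. Against the joined wild types 0 of the 11 fell, and 1 did when probe sets of every kind were tested. None of the 11 was called with FLO8, with MSS11, without MSS11 or with MSS11 in S288c, and their medians were −0.03, −0.17, 0.08 and −0.20. Of all probe sets 0.818%, 1.22%, 0.637% and 1.67% were called there, so a count of 0 is near those shares. Differences below 0 numbered 8 with FLO8, 8 with MSS11, 3 without MSS11 and 10 with MSS11 in S288c. From replicated cultures the study lists DSE2 as lower with MSS11 in Σ1278b.

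**Figure D5:**
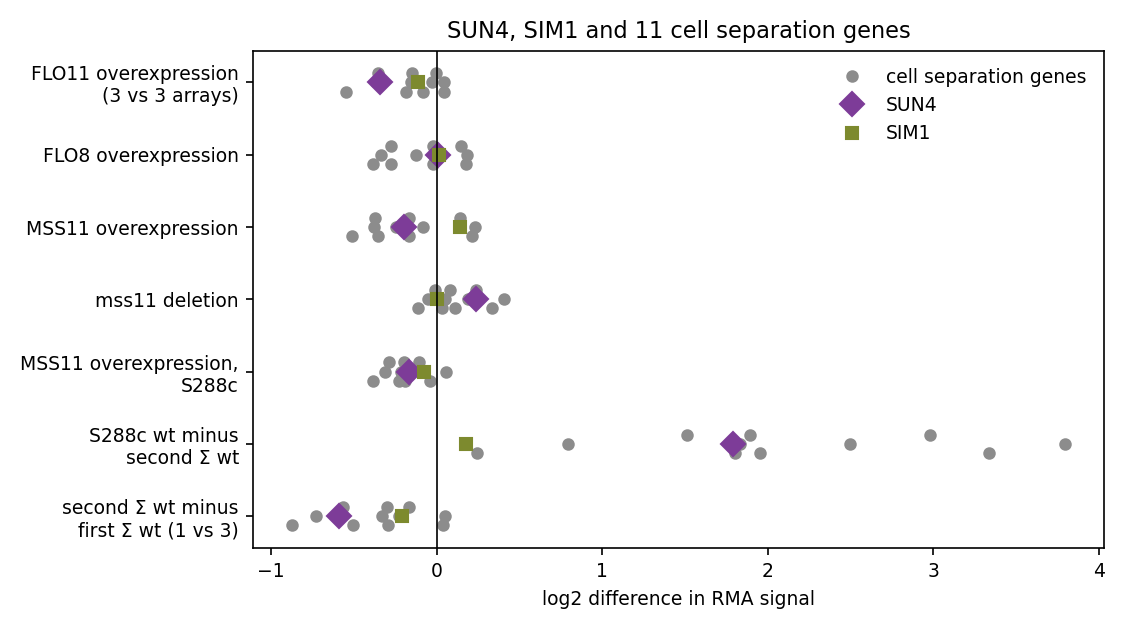
Log2 difference in RMA signal (x axis) of 11 cell separation genes (grey), SUN4 (diamond) and SIM1 (square) in the 7 comparisons (y axis). Between the strains SUN4 (1.79) sits among the separation genes (median 1.89) and SIM1 (0.18) below them all.

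The 8 genes whose centred signal over the 12 arrays came closest to that of SUN4, a list drawn up after its values were seen, included the separation genes DSE4, PRY3 and EGT2. DSE4, which encodes a daughter-specific glucanase, was the closest with a root mean square difference of 0.14, followed by ASN1 and PRY3 (0.17 each). The others were TMN2, RSF2, EGT2, YOR019W and IMP2, up to 0.20.

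Among the enzymes that build or trim β-glucan, the main polymer of the wall in which SUN proteins reside, 1 of 18 measured genes rose with FLO11 overexpressed and 0 fell, a share near the 3.80% of all probe sets that rose, and 0 did so against the joined wild types. It was GSC2, a subunit of glucan synthase induced under stress (0.61, limma adjusted p = 0.0212). The largest of the other differences were those of EXG2 (−0.27) and SPR1 (−0.26), exoglucanase genes that did not pass. None of the 18 was called in any single-array comparison, where 0.637% to 8.60% of all probe sets were called. The list median between strains was 0.13. GSC2 was 0.76 higher in the second than in the first wild type and 0.77 lower with extra FLO8.

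Of YMR244W and TOS1, listed as more distant relatives of the family, YMR244W shared the direction of NCA3 in some comparisons and not in others. YMR244W fell by 0.37 with FLO11 overexpressed (limma adjusted p = 0.0387), was 0.61 higher with MSS11 and 0.82 higher with MSS11 in S288c, and was 1.14 lower in the S288c than in the Σ1278b wild type, which was called. TOS1, which encodes a wall protein, differed by −0.00, 0.00, −0.17 and 0.21 in those comparisons. With FLO8, where NCA3 was higher, YMR244W was 0.39 lower. Without MSS11 it was at 6.87 against 7.03 in the second wild type, while NCA3 was higher than that control. The study, from replicated cultures, lists YMR244W among the genes raised with MSS11 in S288c.

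NCA2, the partner of NCA3 in the expression of Atp6 and Atp8, did not rise with it in the overexpression comparisons. Its difference was −0.06 with FLO11 (limma adjusted p = 0.713), −0.02 with FLO8, −0.07 with MSS11, 0.36 without MSS11 and −0.21 with MSS11 in S288c. Without MSS11 NCA3 was higher as well (0.68). NCA2 was also lower in the second wild type (10.03) than in the first (10.33 to 10.53), as NCA3 was. The mitochondrial genes ATP6 and ATP8 were not analysed here. Of 14 nuclear genes for ATP synthase subunits, with differences between −0.09 and 0.08, 0 rose and 0 fell with FLO11, where 6.35% of all probe sets passed. The same held for 12 genes of ATP synthase expression and assembly, where ATP10 (−0.30, adjusted p = 0.191) and ATP12 (−0.19, adjusted p = 0.164) differed most. In the single-array comparisons none of the 14 subunit genes was called, where 0.637% to 8.60% of all probe sets were. With MSS11 13 of the 14 differences were above 0 in S288c (median 0.19 beside −0.02 for all probe sets) and 12 in Σ1278b (0.06 beside 0.01). The S288c wild type, the control of the former, was itself lower than the second Σ1278b wild type for all 14 (median −0.23). Without MSS11 all 14 were below their control (median −0.04). Of the 12 expression and assembly genes 1 was called, ATP10, which was 1.11 lower in the second than in the first wild type. There 1.55% of all probe sets were called.

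UTH1 has been linked to mitophagy, the removal of mitochondria by autophagy. With FLO11 overexpressed 0 of 13 mitophagy genes passed in either direction (median 0.08 beside −0.01), the widest being ATG1 (0.24) and ATG32 (0.23), which encode the starting kinase of autophagy and the receptor on mitochondria. None of the 13 was called with FLO8, with MSS11 or without MSS11 in Σ1278b. Of all probe sets 0.818%, 1.22% and 0.637% were called there and 6.35% passed with FLO11, so a count of 0 among 13 is near those shares. In S288c with MSS11 ATG1 differed by −0.78, still under 2-fold.

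The 8 genes with the profile most like NCA3, by root mean square difference of centred values over the 12 arrays, were HXT4 (0.69), CIN5 (0.76), MGA1 (0.76), TMA10 (0.77), HXT2 (0.80), HXT7 (0.86), MOH1 (0.86) and RGI1 (0.87). HXT2, HXT4 and HXT7 encode hexose transporters, CIN5 and MGA1 transcription factors, and RGI1 a protein of respiratory growth. The probe set of HXT7 is marked as sharing probes with related genes. No SUN relative was among them, and only 4 of the 8 were also among the 8 with the highest correlation to NCA3, a list that held FLO11.

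HXT4 was at 11.49, 11.46 and 11.85 in the first wild type and at 11.97, 12.32 and 12.13 with FLO11, at 11.18 in the second wild type, 12.03 with FLO8, 12.81 with MSS11 and 10.87 without MSS11, and at 10.58 and 13.09 in S288c without and with MSS11. Its difference with FLO11 was 0.54 and did not pass (limma adjusted p = 0.0524), and with MSS11 it was 1.63 in Σ1278b and 2.52 in S288c. Of the 8 genes, 6 rose with FLO11, 2 were called higher with FLO8, 6 with MSS11 and 7 with MSS11 in S288c. Of all probe sets 3.80%, 0.473%, 0.946% and 1.24% were. The genes were chosen for their likeness, so these counts support nothing about them. Unlike NCA3, CIN5 was lower without MSS11 than in the second wild type (−1.05).

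ISF1, HMS1 and NCE103 were named by the study together with NCA3 from these samples, so their direction is not independent evidence. All 3 rose with FLO11 (0.69, 0.51 and 0.67), by less than NCA3. ISF1, which is linked to mitochondrial function, was 1.26 higher with FLO8, 1.79 with MSS11 and 2.53 with MSS11 in S288c. Without MSS11, HMS1, a regulator of filamentous growth, was 2.18 lower, whereas ISF1 (−0.09) and NCE103, the carbonic anhydrase gene, (−0.08) stayed near their control. NCA3 was 0.68 higher than the same control there.

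The genes next to NCA3 on the chromosome did not share its pattern. PHO86, which encodes an endoplasmic reticulum protein needed for phosphate transporter export, differed by −0.03 with FLO11, 0.05 with FLO8, 0.06 with MSS11, 0.10 without MSS11 and −0.19 with MSS11 in S288c. ASF1, a histone chaperone gene, fell by 0.37 with FLO11 (limma adjusted p = 0.0228) and differed by 0.19, 0.06, −0.09 and 0.45 in the others. Next to SUN4, RPL9B, a ribosomal protein gene, differed by 0.03 between the strains, while AQR1, a transporter gene on the other side, was 1.18 higher in S288c, as SUN4 was. AQR1 was also 1.29 lower in the second than in the first wild type, where SUN4 was 0.59 lower. Its signal in the S288c wild type (10.73) lay within that of the first wild type (10.72 to 10.91). The neighbours of UTH1 (YKR041W and SHB17) and of SIM1 (AYR1 and POG1) were called in none of the comparisons, where 0.637% to 8.60% of all probe sets were.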

How the data were processed

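Each culture gave RNA for 1 Affymetrix Yeast Genome 2.0 array. Values deposited by the authors were RMA intensity, linear in scale, with no RMA version stated. They were log2 transformed without a pseudocount. Of 10928 probe sets, 5498 mapped to a single S. cerevisiae gene and were tested. The 95th percentile of 1747 probe sets of other genes was the background (4.77 to 4.90, with 97.4 to 98.5% of S. cerevisiae probe sets above it on each array). The array median was 10.72 to 10.84.

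FLO11 overexpression was compared with the first wild type by limma 3.58.1 in R 4.3.3 (lmFit, eBayes, two-sided). P-values were adjusted by Benjamini and Hochberg across the 5498 probe sets, with 0.05 as the threshold. The labels call the arrays biological replicates, and their number limits the precision. Single arrays were compared without a test, at 2-fold, and through a 12-array fit whose residual spread comes from the replicated groups.

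The members, lists and tests were chosen with earlier results of these data known. Genes were named by a rule: the members, the manipulated and marker genes, chromosomal neighbours, the 8 genes most like NCA3 and up to 3 per list and comparison. The SUN4 list, the genes with non-overlapping strains the first wild type as control of S288c and of FLO11 signal, and the list calls under other settings were added after the values were seen. No sequence or coordinate is given, because no sequence table was used. On simulated data the test was checked before use.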

Additional observations from a re-analysis of the deposited data

How the results depend on the processing

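With FLO11 overexpressed, 349 probe sets passed the test, 209 higher and 140 lower. The count was 208 with the replicate number as a block (148 and 60), 109 against the joined wild types of the 2 sets, 112 over all probe sets of the array (90 and 22), 38 at a minimum of 2-fold, and 96 to 318 with 1 array left out. It was 165, 96 and 217 without wild-type replicates 1, 2 and 3, and 162 and 149 without FLO11 replicates 2 and 3. Quantile normalization within the 6 arrays gave 198 higher and 154 lower. Equal replicate numbers did not pair the arrays (correlations of deviations −0.27 to 0.03, and no array correlated best with its own number), and the block changed no call of the 4 genes. SUN4 was −0.19 (adjusted p = 0.596) against the joined wild types and −0.34 (adjusted p = 0.0577) over all probe sets, did not reach the 2-fold minimum at −0.34, and ran from −0.37 to −0.31 with 1 array left out. NCA3 ran from 1.58 to 1.76, SIM1 from −0.13 to −0.09 and UTH1 from 0.04 to 0.09. The 8 calls in the gene lists became 2 against the joined wild types, 3 over all probe sets, 0 at 2-fold and 4 to 8 with 1 array left out, 4 without wild-type replicate 2 or FLO11 replicate 2 and 5 without FLO11 replicate 3.

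With the first wild type as control, 94 probe sets were called for FLO8, 131 for MSS11 and 82 for the mss11 deletion. NCA3 was then 0.65, 2.35 and −0.19, SIM1 −0.20, −0.072 and −0.21, SUN4 −0.58, −0.79 and −0.36, and UTH1 0.10, 0.25 and −0.12. For S288c against the first wild type NCA3 was −1.94, SIM1 −0.034, SUN4 1.20 and UTH1 −0.10. At 1.5-fold the counts were 118 for FLO8, 169 for MSS11, 119 for the deletion, 330 for MSS11 in S288c, 1139 between strains and 294 between wild types, and in the 12-array fit 102 for MSS11, 680 for MSS11 in S288c, 2368 between strains and 990 between wild types. Quantile normalization moved SIM1 to −0.12 with MSS11 in S288c, and SIM1 to 0.25 and SUN4 to 1.86 between strains. Centring gave SIM1 0.23, SUN4 1.84 and UTH1 −0.093 between strains. Between wild types, with 1 array left out, the count was 85 to 89, NCA3 −0.97 to −0.81, SIM1 −0.22 to −0.21, SUN4 −0.61 to −0.57 and UTH1 0.02 to 0.07. By correlation 4 of the 8 genes most like NCA3 were shared. The cause of these shifts was not tested. Of the other alternatives, 107 values were rated the same. A difference was so rated if it kept its direction and side of the threshold or moved by less than the spread between replicates. A count was so rated if it stayed within 1.5-fold of the main count. The promoter and protein comparisons were not run.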
